A study of Danio rerio with 6 samples.

Results

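The cytosolic ribosomal protein genes, which encode the protein part of the ribosomes that read nuclear messages, were examined in skeletal muscle of zebrafish larvae of the runzel line. They were chosen by name, as every gene with a single platform symbol that begins with rpl or rps followed by a digit, p or a, with the rps6k kinases left out. The rule took 74 of the 8793 genes named on the array, 45 of the large subunit and 29 of the small subunit, measured by 79 of 15502 probe sets. Of 85 RefSeq genes whose symbols match the rule, 11 were not among these. The rule also took rpl7l1 and rps19bp1, which are not known as ribosomal proteins, and each is described below by its own values.

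Muscle from runzel mutants, abbreviated ruz and described in the series title as carrying a titin mutation, was set against muscle from wildtype siblings. Each group had 3 arrays of pooled trunk and tail muscle at 3.5 days after fertilization (the protocol gives 3 to 3.5 days), when the muscle phenotype first shows. Head, heart and gut had been cut away. The labels name no allele, no number of larvae per pool and no drug or other treatment in either group, and the description states that mutants and siblings came from the same clutches, 3 in all. Values are linear signal per probe set, and a difference is runzel minus wildtype sibling on the scale of log2(signal + 50). A pair is the runzel and the wildtype array with the same replicate number, a match taken from the data since no label gives it.

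A ribosome has a small subunit, which holds the messenger RNA and reads its codons, and a large subunit, which joins amino acids and passes the new chain through its exit tunnel. The ribosomal proteins are made in nearly matched amounts, and in vertebrates their messages share a run of pyrimidines at the 5′ end (the 5′ TOP) through which TOR signalling sets their translation. Their messages are among the most abundant in growing tissue, and growing muscle needs many ribosomes to build its sarcomeres.

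Arrays had been scaled before deposit, with a 2% trimmed mean of 1500.42 to 1500.46 on all 6. The list of 20 fast skeletal muscle markers had a median position at percentile 99.7 of signal, so the labelled tissue was present in the RNA. RNA integrity can be read from control probe sets at the 3′ and the 5′ end of a message. For actin, runzel had a 3′ to 5′ ratio of 2.49 ± 0.398 and wildtype siblings one of 1.51 ± 0.195 (SD, n = 3 each, exact permutation p = 0.1, the smallest the design allows). For GAPDH, runzel had 1.501 ± 0.0374 and wildtype siblings 1.57 ± 0.0391 (SD, n = 3 each, exact permutation p = 0.2). The part of RNA integrity in the results below was not tested.

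Ribosomal protein probe sets lay at the top of the array's scale. The median member stood at percentile 99.4 of signal, 74 of the 79 probe sets stood at or above percentile 98, and 44 were among the 100 brightest on the array. Together they made up 12.3%, 12.6% and 12.5% of the summed signal in runzel arrays, against 12.7%, 12.5% and 13.3% in wildtype arrays. The mean share was 12.5% ± 0.194 over the runzel arrays and 12.8% ± 0.417 over the wildtype arrays (SD, n = 3 each, exact permutation p = 0.2). The groups overlapped, and wildtype replicate 3 stood above the other 5 arrays. A signal depends on the probes as well as on the message, so these shares are not shares of transcripts. In pooled muscle, fewer cells of a type and less RNA per cell cannot be told apart.

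As deposited, 44 of the 45 large-subunit genes had lower signal in runzel than in wildtype siblings. The direction turned under quantile normalization, which matches the arrays' whole distributions, and cyclic loess, which takes out each array's trend with brightness. Members were 44 of the 100 brightest probe sets, and how far either scaling takes out a shift of the family alone was not tested. Both also moved the 253 other probe sets with a mean signal of at least 20000. Their median went from -0.103 as deposited to -0.005 after quantile normalization and -0.017 after cyclic loess. The scalings cannot settle whether the whole family differed. On the deposited scale the median difference was -0.070 in log2, a percent difference of -4.72%, and the genes ran between -0.22 and 0.04. Over all 6136 tested genes the median difference was 0.003, and 49.5% were below 0. The large-subunit median was -0.088 in pair 1, 0.0003 in pair 2 and -0.140 in pair 3 (SD of the pairs 0.071). Genes below 0 numbered 42, 22 and 40 of 45 in those pairs, so pair 2 showed no shift. Of the 45 genes, 18 (40%) were lower in 3 of 3 pairs, against 17.7% of all tested genes, and 0 were higher in 3 of 3, also against 17.7%. All tested genes are mostly dimmer than the members, so these shares are not like for like.

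The small subunit gave nearly the same picture, with 27 of 29 genes lower in runzel as deposited and the same turn of direction under quantile normalization and cyclic loess. Its median difference was -0.086, a percent difference of -5.77%, with genes between -0.25 and 0.01. The median was -0.090 in pair 1, -0.031 in pair 2 and -0.168 in pair 3 (SD 0.069), and 29, 17 and 26 of 29 genes were below 0. Lower in 3 of 3 pairs were 14 genes (48.3%), against the 17.7% given above for all tested genes.

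No ribosomal protein gene passed the test at an adjusted p of 0.05. In the limma fit without a block, 0 of 9301 tested probe sets passed (0%), and 447 (4.81%) had an unadjusted p under 0.05. Among genes, 3 large-subunit and 2 small-subunit members had an unadjusted p under 0.05, where 4.97% of all tested genes did. With the pairs as a block, 111 probe sets passed (1.19%), 67 higher (0.72%) and 44 lower (0.473%), and again 0 were members. There the unadjusted p was under 0.05 for 4 large-subunit and 4 small-subunit genes, while 13.1% of all tested genes reached it. The smallest paired adjusted p was 0.121 in the large subunit and 0.197 in the small one. The paired 95% interval of a member's difference had a median half-width of 0.136 in the large subunit and 0.138 in the small subunit, and of 0.319 over all tested genes. Bright probe sets vary less in general. The median within-group SD was 0.076 for members with a signal of at least 20000, 0.119 for other probe sets as bright and 0.216 over all tested genes. Over the brighter members, of mean log2 signal above 14, those intervals reached no lower than -0.34 and no higher than 0.21 in the large subunit, and no lower than -0.41 and no higher than 0.17 in the small one. The intervals are for signal, and whether signals this high follow transcript level in proportion was not tested.

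**Figure D1:**
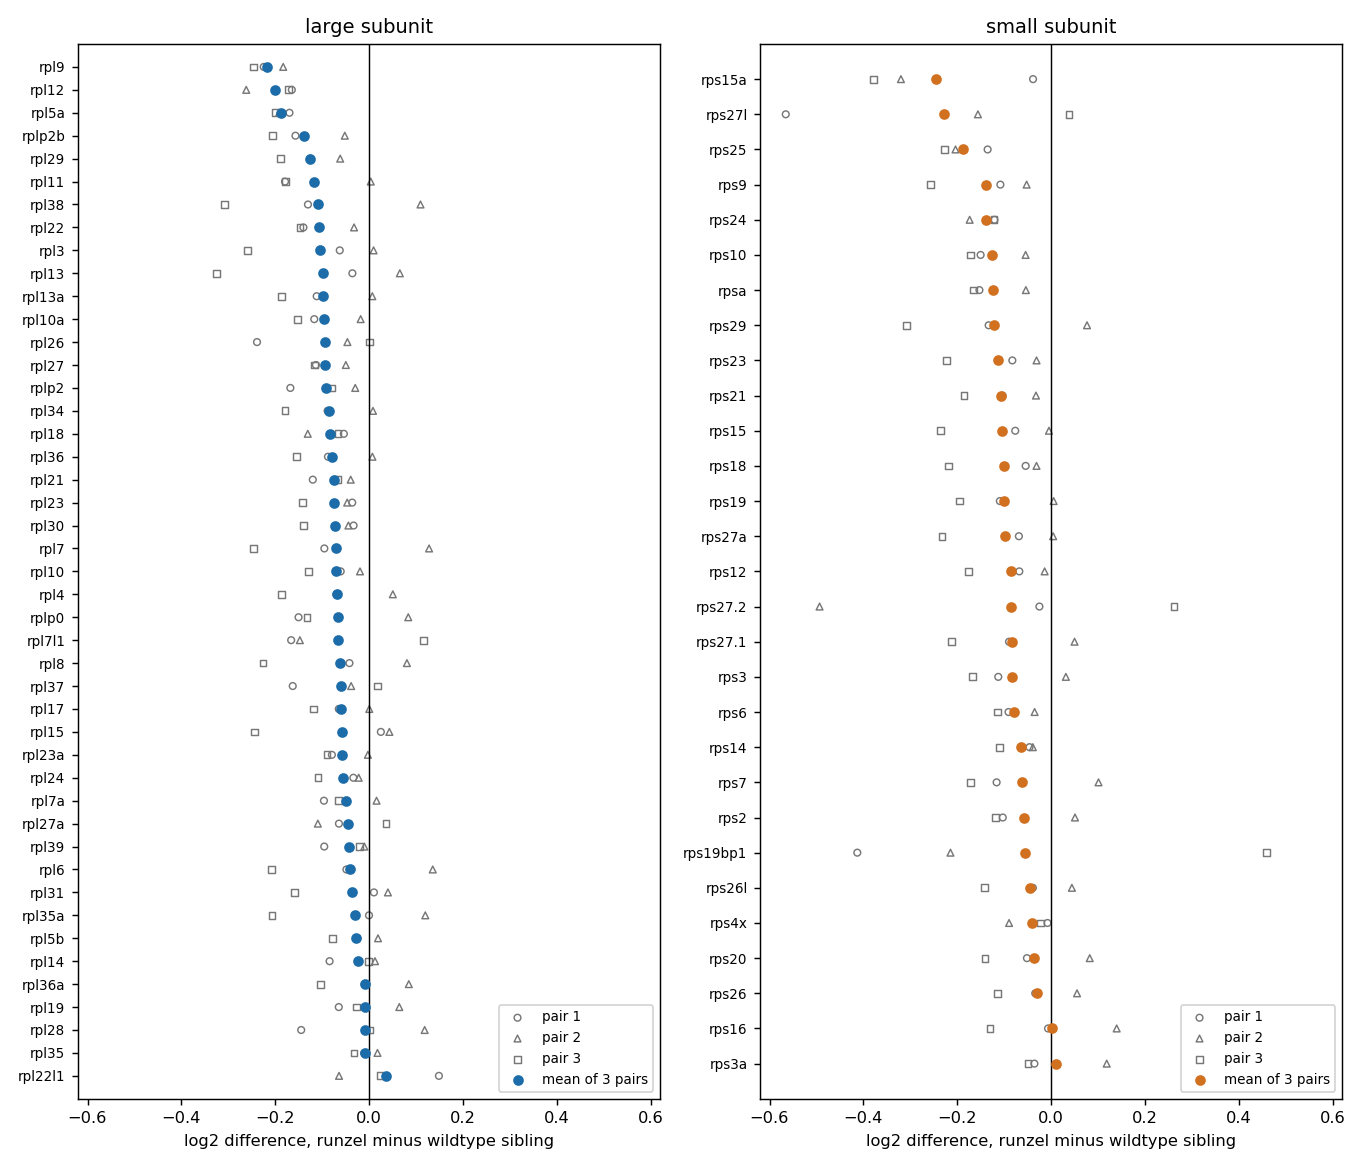
Log2 difference, runzel minus wildtype sibling, of each ribosomal protein gene (rows, sorted within the subunit), with open symbols for the 3 pairs and a filled point for their mean, on the deposited scale. Filled points lie left of 0 for 44 of 45 large-subunit and 27 of 29 small-subunit genes, and the pair 2 symbols straddle 0; the medians were above 0 after quantile normalization or cyclic loess.

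The groups of 3 arrays did not overlap, with runzel lower, for 8 large-subunit genes (17.8%) and 6 small-subunit genes (20.7%), where 5% of all tested genes separated that way. With runzel higher, 0 members separated, where 5.67% of all genes did. Here too all tested genes are mostly dimmer and vary more, so the shares do not set the members apart from other bright probe sets. The 8 were rpl5a, rpl9, rpl12, rpl22, rpl23, rpl27, rpl30 and rplp2b, and the 6 were rps9, rps10, rps15, rps21, rps24 and rps25. The arrays did not contribute evenly to this pattern. Relative to each gene's 6-array mean, the large-subunit medians were -0.072, -0.010 and -0.030 in runzel, against 0.006, -0.011 and 0.109 in wildtype siblings. The small-subunit medians were -0.081, -0.014 and -0.011 in runzel, against 0.003, -0.009 and 0.159 in wildtype siblings. Wildtype replicate 3 held the highest value for 32 of 45 large-subunit and 26 of 29 small-subunit genes, and runzel replicate 1 the lowest for 23 and 14. The whole array's summed signal was likewise highest for wildtype replicate 3 (3.97e+07) and lowest for runzel replicate 1 (3.73e+07). Their brightest signals, 173549 and 124249, were also the highest and the lowest among the arrays. Summed signal was lower on every runzel array than on every wildtype array (exact permutation p = 0.1, the smallest possible). These extremes were not counted for other bright probe sets, so the counts do not set the members apart. Without wildtype replicate 3 the median differences were -0.037 for the large subunit and -0.039 for the small subunit.

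**Figure D2:**
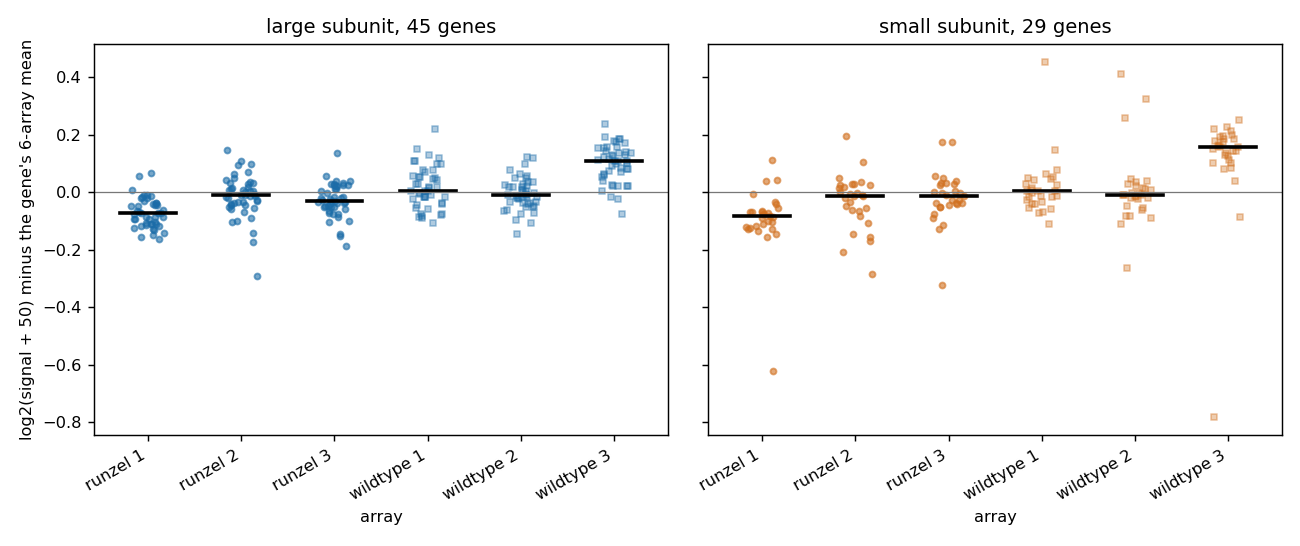
Log2(signal + 50) of each ribosomal protein gene minus its 6-array mean (vertical), by array (horizontal), with a bar at the median of the array, on the deposited scale. The medians of runzel replicate 1 lie lowest, at -0.072 and -0.081, those of wildtype replicate 3 highest, at 0.109 and 0.159, and the other 4 arrays lie within 0.03 of 0.

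The large-subunit member with the greatest difference among those whose groups separated was rpl9, a protein at the base of the stalk that receives elongation factors. Its signal was 65068, 67049 and 68415 in runzel, against 76038, 76130.0 and 81145 in wildtype siblings. Every runzel array lay below every wildtype array, and the pairs differed by -0.22 ± 0.032 (SD, n = 3). Its adjusted p was 0.818 unpaired and 0.121 paired (limma), and its exact permutation p was 0.1, the smallest possible. It was the sole member called under any of the scalings tried: with the pairs as a block and each array centred on its median, the difference was -0.27 with an adjusted p of 0.038 (limma), where 0.505% of probe sets were called lower.

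Next to rpl9 in the stalk base sits rpl12, and the stalk itself is built of rplp0 and the acidic P proteins. The rpl12 signal was 56159, 51399 and 51266 in runzel, against 62959, 61639 and 57765 in wildtype siblings, a difference of -0.20 ± 0.054 (SD, n = 3 pairs, paired adjusted p = 0.199, limma). The rplp2b signal was 63303, 67865 and 65007 in runzel, against 70585, 70352 and 74952 in wildtype siblings, a difference of -0.14 ± 0.078 (paired adjusted p = 0.371, limma). Neither gene's groups overlapped. For rplp0, which anchors the P proteins, the signal was 86790.0, 95564 and 96529 in runzel and 96332, 90200.2 and 105827 in wildtype siblings, with a difference of -0.07 ± 0.130 and overlapping groups. The second acidic protein gene, rplp2, differed by -0.09 ± 0.070. The P protein gene rplp1 was not among the members. All 5 stalk genes measured were below 0 as deposited, as were 44 of the 45 large-subunit genes. Their median was -0.14, but the group was drawn up after its values were seen, so this median does not set the stalk apart. The genes rpl9, rpl12 and rplp2b stayed below 0 under all 8 scalings, while rplp0 and rplp2 were above 0 after quantile normalization and cyclic loess.

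The 5S ribonucleoprotein joins the 5S ribosomal RNA to rpl5 and rpl11, and in mammals its free form holds back the p53 regulator MDM2. The rpl5a signal was 51384, 47100.2 and 51068 in runzel, against 57808, 53803 and 58660 in wildtype siblings. The groups did not overlap, and the pairs lay close together, at -0.19 ± 0.016 (SD, n = 3, unpaired adjusted p = 0.977 and paired adjusted p = 0.232, limma). For rpl11 the signal was 55085, 57070 and 54594 in runzel and 62378, 56935 and 61771 in wildtype siblings, a difference of -0.12 ± 0.105 with overlapping groups. The paralogue rpl5b had a signal of 58159, 63207 and 65356 in runzel and 59179, 62385 and 68991 in wildtype siblings. Its difference was -0.03 ± 0.049 as deposited, and its sign turned under 5 of the 8 scalings. The difference of rpl5a lay below that of rpl5b in every pair, by 0.145, 0.211 and 0.122.

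Proteins of the peptidyl transferase centre and the path of the tRNAs (rpl3, rpl8, rpl10 and rpl36a) had a median of -0.066, and the 10 genes measured that line or surround the exit tunnel had a median of -0.050. Among the brightest large-subunit members, rpl3 had 82242, 91324 and 84774 in runzel and 85895, 90728 and 101495 in wildtype siblings. Its difference was -0.10 ± 0.139, and its second probe set gave -0.11 ± 0.098. For rpl8 the difference was -0.06 ± 0.154, between 82598 and 93965 in runzel and between 85040 and 101307 in wildtype siblings. Neither gene's groups separated, and wildtype replicate 3 was the highest array for each.

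Of the tunnel genes, rpl22, an RNA-binding protein with a known paralogue, had 50684, 52522 and 52384 in runzel, against 55856, 53708 and 58015 in wildtype siblings, without overlap. Its difference was -0.11 ± 0.064, and its sign turned after quantile normalization (0.007). The paralogue rpl22l1 was the only large-subunit gene above 0 as deposited, with 22709, 21043 and 22105 in runzel and 20482, 22002 and 21753 in wildtype siblings. Its difference was 0.04 ± 0.107 (paired adjusted p = 0.901, limma), the groups overlapped, and its sign turned under median centring (-0.018). The difference of rpl22l1 minus that of rpl22 was 0.14 ± 0.162 over the pairs and changed sign in pair 2. For rpl27 the signal was 69447, 68288 and 70087 in runzel, against 75133, 70683 and 75955 in wildtype siblings, a difference of -0.09 ± 0.038, which was 0.011 after cyclic loess. Smaller separations were those of rpl23, a protein of the subunit interface (-0.08 ± 0.059), and rpl30 (-0.07 ± 0.059), and each was above 0 after quantile normalization and cyclic loess. The dimmest large-subunit members by signal, rpl7l1, rpl22l1 and rpl24, differed by -0.07, 0.04 and -0.05. The rpl7l1 signal, at percentile 87.6, was 3509, 2746 and 3716 in runzel and 3943, 3047 and 3425 in wildtype siblings, with overlapping groups (SD of the pairs 0.158).

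In the small subunit the member with the greatest difference among those whose groups separated was rps25, a protein of the head that some viral messages need for internal initiation. Its signal was 66487, 65057 and 72501 in runzel, against 73032, 74935 and 84844 in wildtype siblings. All 3 runzel arrays lay below all 3 wildtype arrays, with a difference of -0.19 ± 0.048 (SD, n = 3 pairs), an adjusted p of 0.977 unpaired and 0.197 paired (limma), and an exact permutation p of 0.1. The head protein rps10 had 59960, 63110.0 and 59954 in runzel, against 66550.3, 65541 and 67579 in wildtype siblings, a difference of -0.13 ± 0.063 (paired adjusted p = 0.422, limma). Another head protein, rps15, had 73141, 76824 and 75232 in runzel, against 77129, 77076 and 88588 in wildtype siblings, where runzel replicate 2 and wildtype replicate 2 lay almost level. It differed by -0.11 ± 0.118, and by 0.001 after cyclic loess. The 10 head genes measured had a median of -0.10, and 9 of them were below 0 as deposited, as were 27 of the 29 small-subunit genes.

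Messenger RNA enters the small subunit past rps2, rps3 and rps9, and rps23 lines the decoding centre. The rps9 signal was 52133, 53676 and 54308 in runzel, against 56198, 55660 and 64931 in wildtype siblings, without overlap, a difference of -0.14 ± 0.106 (paired adjusted p = 0.414, limma). The rps2 signal, the highest of any member, was 101196, 113966 and 114474 in runzel and 108696, 110025 and 124317 in wildtype siblings. Its groups overlapped, and its difference of -0.06 ± 0.094 was 0.041 after quantile normalization. For rps23 the signal was 82048, 88136 and 86764 in runzel and 86894, 90062 and 101323 in wildtype siblings, and runzel was lower in 3 of 3 pairs with overlapping groups (-0.11 ± 0.0996).

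Along the body of the subunit, rps24 had 63608, 60221 and 66889 in runzel, against 69171, 67930 and 72777 in wildtype siblings. The groups did not overlap, and the pairs agreed closely, at -0.14 ± 0.030 (paired adjusted p = 0.351, limma). In humans RPS24 is one of the genes mutated in Diamond-Blackfan anaemia. The difference furthest below 0 belonged to rps15a, a body protein, with 50786, 40552 and 45236 in runzel and 52166, 50637 and 58811 in wildtype siblings. Runzel replicate 1 lay above wildtype replicate 2, so the groups overlapped, and the pairs spread widely, at -0.25 ± 0.182 (paired adjusted p = 0.202, limma, exact permutation p = 0.2). Where the messenger leaves, rps21 and rpsa lie side by side. The rps21 signal was 52666, 55141 and 55450 in runzel, against 56591, 56394 and 63069 in wildtype siblings, a difference of -0.11 ± 0.077 without overlap. The rpsa signal was 76506, 81461 and 87258 in runzel and 85063, 84563 and 97910.0 in wildtype siblings, a difference of -0.12 ± 0.061 with overlapping groups (paired adjusted p = 0.390, limma). The S6 kinase substrate rps6 had 63981, 64385 and 66899 in runzel and 68143, 65981 and 72422 in wildtype siblings, a difference of -0.08 ± 0.041 with overlapping groups, and 0.024 after quantile normalization.

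Only rps3a and rps16 of the small subunit were above 0 as deposited, at 0.01 ± 0.093 and 0.0008 ± 0.135. The rps3a signal was 61191, 62954 and 60995 in runzel and 62726, 57994 and 63124 in wildtype siblings, and the rps16 signal 50383, 54969 and 54223 in runzel and 50613, 49896 and 59361 in wildtype siblings. The groups overlapped for each, and each was below 0 after centring on the median or the 75th percentile. The ubiquitin fusion gene rps27a, among the 3 brightest of the subunit, differed by -0.10 ± 0.121.

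Members with paralogues or several probe sets showed how far single probe sets could be read. The rps27.1 gene had 3 probe sets, at -0.08 ± 0.131, -0.11 ± 0.101 and -0.13 ± 0.025, of which only the last separated the groups. Its paralogue rps27.2 had 28736, 28049 and 35685 in runzel and 29240.0, 39507 and 29760.0 in wildtype siblings, a difference of -0.09 ± 0.381 in which pair 2 and pair 3 had opposite signs. The third of these genes, rps27l, whose human counterpart is a p53 target, had 2957, 4921 and 5168 in runzel and 4400.1, 5489 and 5032 in wildtype siblings. That difference of -0.23 ± 0.308 came from 2 of 3 pairs, and the gene stood at percentile 91.0 of signal. The paralogues rps26 and rps26l, which encode a protein at the messenger exit, differed by -0.03 ± 0.085 and -0.05 ± 0.093, and their pairs moved together to within 0.026. For rps19bp1 the 2 probe sets had opposite signs, -0.06 ± 0.457 and 0.05 ± 0.203. The second rpl21 probe set, with a mean signal of 108 in runzel and 76.8 in wildtype siblings, was too dim to be tested, while the brighter one differed by -0.08 ± 0.041. Near-identical paralogues can share probes. The suffix a, carried by 9 member probe sets, marks probes able to match several transcripts of the same gene and does not mark a match to a paralogue.

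Large and small subunits were close to each other. The large-subunit median minus the small-subunit median was 0.016, at 0.002 in pair 1, 0.031 in pair 2 and 0.028 in pair 3 (SD 0.016), so the difference between the subunits was as large as its spread between pairs. As a share of the summed signal, the large subunit made up 7.56% ± 0.146 over the runzel arrays and 7.76% ± 0.190 over the wildtype arrays (SD, n = 3 each, exact permutation p = 0.3). The small subunit made up 4.91% ± 0.0755 over the runzel arrays and 5.09% ± 0.228 over the wildtype arrays (SD, n = 3 each, exact permutation p = 0.2).

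Against the median of its own subunit in each pair, which takes out any shift common to the subunit, rpl9 still lay below by 0.142 ± 0.039 (SD, n = 3 pairs), rpl12 by 0.124 ± 0.122, rpl5a by 0.111 ± 0.071 and rps25 by 0.092 ± 0.070. In each of these the sign held in 3 of 3 pairs. Such members below their subunit numbered 11 of 74, among them also rplp2b, at -0.062 ± 0.009, and rpl29, at -0.050 ± 0.012. The members above their subunit in 3 of 3 pairs numbered 10 of 74, and the 3 with the highest mean were rps3a at 0.107 ± 0.049, rps16 at 0.097 ± 0.068 and rpl35, a tunnel protein, at 0.067 ± 0.046. Against 0 instead of a subunit median, 17.7% of all tested genes were lower in 3 of 3 pairs and 17.7% higher. The members named here were picked as extremes of these same values, so their kept sign is no separate support. For rps15a the deviation of -0.149 ± 0.178 did not keep its sign.

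The scaling of the arrays moved the whole family. Centring each array on its median gave -0.124 for the large subunit, -0.140 for the small subunit and -0.051 for all tested genes. Centring on the 75th percentile gave -0.088, -0.104 and -0.016 in that order. Equal total signal gave -0.029, -0.045 and 0.042, equal total signal without the members gave -0.035, -0.051 and 0.036, and the 18 hybridization spike probe sets gave -0.018, -0.034 and 0.054. Against all tested genes under the same scaling, the members were lower by nearly the same amount in each of these, since each multiplies a whole array by 1 factor. Quantile normalization gave 0.017, 0.004 and -0.008, and cyclic loess 0.031, 0.004 and -0.006, so the medians turned slightly positive. Both also moved the median of the other bright probe sets towards 0, so medians near 0 there do not show whether the family shifted.

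After quantile normalization 13 of 45 large-subunit and 13 of 29 small-subunit genes were below 0, and after cyclic loess 9 and 13. The groups then separated with runzel lower for 3 large-subunit and 0 small-subunit genes under quantile normalization (4.84% of all genes) and for 1 and 0 under cyclic loess (4.76%). They separated with runzel higher for 2 and 1 genes under quantile normalization (4.97%) and for 5 and 2 under cyclic loess (5.17%). Under median centring 10 large-subunit and 6 small-subunit genes separated with runzel lower (7.35%) and 0 with runzel higher (3.76%). The mean log2 signal of the spikes was 12.19 ± 0.148 over the runzel arrays and 12.24 ± 0.162 over the wildtype arrays (SD, n = 3 each, exact permutation p = 0.7), and the highest was that of wildtype replicate 3, at 12.40.

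Under all 8 scalings the difference was below 0 for 8 large-subunit genes (rpl5a, rpl7l1, rpl9, rpl11, rpl12, rpl29, rpl38 and rplp2b) and 11 small-subunit genes (rps9, rps10, rps15a, rps19bp1, rps21, rps23, rps24, rps25, rps27l, rps29 and rpsa), and above 0 for none. Apart from quantile normalization and cyclic loess, the scalings differ by 1 factor per array, so agreement among them is largely 1 result repeated. The share of all tested genes below 0 under all 8 was not counted. Under single scalings that share lay between 39.0% (hybridization spikes) and 60.4% (median centring), so these counts do not set the members apart from other genes. For groups that separated under several scalings, given below for single genes, no share over all tested genes was counted either. A kept sign is not support in itself, since rps19bp1 and rps27l kept theirs with pairs that spread widely (SD 0.457 and 0.308). The rpl9 difference ran between -0.27 and -0.11, and its groups separated under 7 of the 8. Those of rpl5a and rplp2b separated under 6, those of rps9, rps10 and rps24 under 5, and those of rpl12 and rps25 under 3. The rps15a difference ran between -0.30 and -0.15, and its groups separated under 1.

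**Figure D3:**
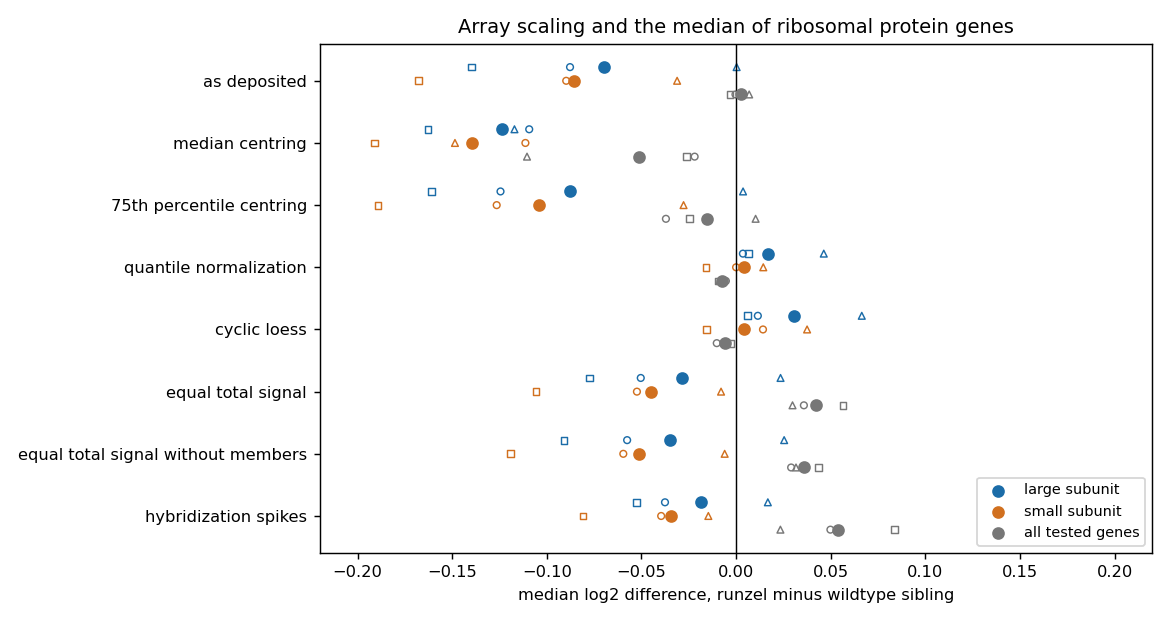
Median log2 difference, runzel minus wildtype sibling (horizontal), of large-subunit, small-subunit and all tested genes under 8 array scalings (rows), with filled points for the 3-pair mean of each gene and open circles, triangles and squares for pairs 1, 2 and 3. The subunit medians lie below 0 in 6 scalings, between -0.140 and -0.018, and above 0 after quantile normalization and cyclic loess, between 0.004 and 0.031.

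The shift was shared with other bright probe sets. Among tested probe sets with a mean signal of at least 20000, the 74 members had a median difference of -0.082 with 95.9% below 0, and the 253 others had a median of -0.103 with 81.4% below 0. In pairs 1, 2 and 3 the members' medians were -0.086, -0.007 and -0.153, and those of the others -0.080, -0.074 and -0.134. The groups of bright probe sets thus differed most in pair 2, where the other bright probe sets lay lower than the ribosomal proteins. On the deposited scale the brighter classes of other probe sets had lower medians up to a signal of 60000. The median was 0.026 for signals of 500 to 2000, -0.009 for 2000 to 8000, -0.065 for 8000 to 20000, -0.103 for 20000 to 40000, -0.133 for 40000 to 60000 and -0.094 above 60000. The members had -0.061 between 40000 and 60000 (22 probe sets) and -0.083 above 60000 (48 probe sets). After quantile normalization the members of at least 20000 had a median of 0.014 and the others -0.005, and after cyclic loess 0.021 and -0.017. Whether brightness or the message itself sets the members' shift was not tested.

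**Figure D4:**
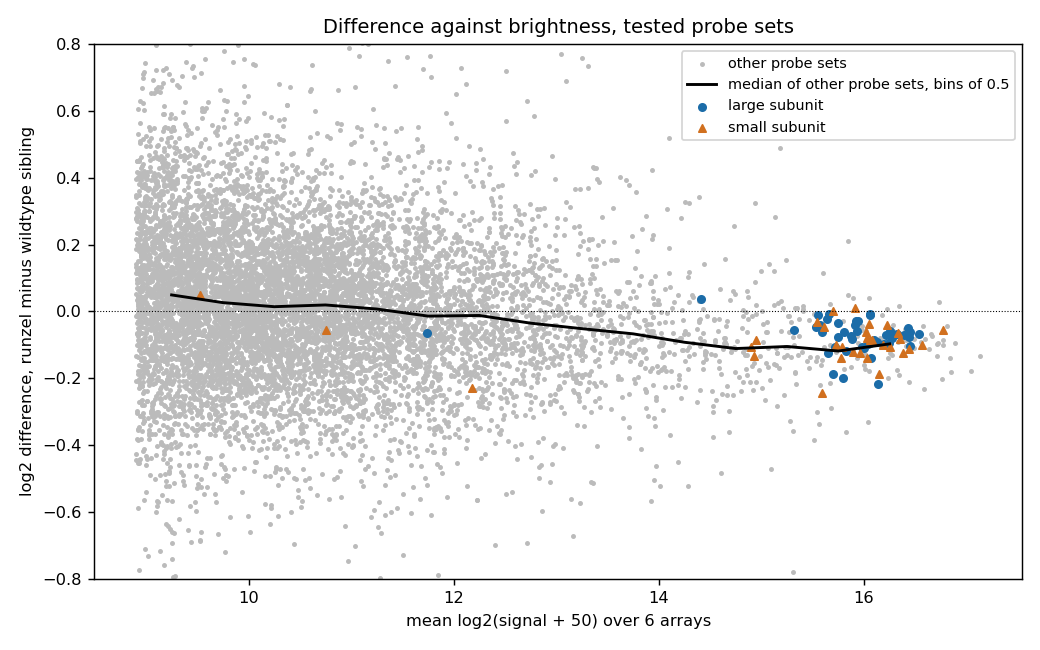
Log2 difference, runzel minus wildtype sibling (vertical), against mean log2(signal + 50) over 6 arrays (horizontal) for tested probe sets, with large-subunit and small-subunit members marked and a line at the median of the other probe sets in bins of 0.5. The line lies at or above 0 at the dim end and near -0.1 at the bright end, where nearly all members lie; 74 probe sets beyond 0.8 in either direction are outside the plotted range, and the scale is the deposited one.

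Other genes of translation were grouped in 5 lists. In the fit without a block 0 genes of any list passed, but 0 of all 9301 tested probe sets did, so this count says nothing about the lists. The lists share some genes, such as eif6, so their medians are not independent of each other. The 24 tested genes of the 5′ TOP class that are not ribosomal proteins, such as elongation factors, had a median difference of -0.019, with 15 below 0 and 9 above. The elongation factor gene eef1a1l1 differed by -0.09 ± 0.051 and the poly(A)-binding protein gene pabpc1a by -0.16 ± 0.066 (paired adjusted p = 0.369, limma). The pabpc1a signal was 26871, 30264 and 29924 in runzel, against 31278, 32230 and 33994 in wildtype siblings, without overlap. In the same list tpt1 differed by -0.14 ± 0.144. The gene eef2l2, an elongation factor 2 relative, differed by 0.33 ± 0.264 with overlapping groups (paired adjusted p = 0.202, limma). With 15 genes below 0 and 9 above, the list did not move one way as deposited. The 5′ TOP list had 0 genes passing in the paired fit.

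The 39 initiation factors had a median of 0.021, with 16 below 0, and 0 passed in the paired fit. The eif2b5 gene, for a subunit of the nucleotide exchange factor of eIF2, had 1616, 1978 and 1868 in runzel, against 1212, 1361 and 1177 in wildtype siblings, a difference of 0.52 ± 0.122 without overlap (unpaired adjusted p = 0.818 and paired adjusted p = 0.115, limma). Of the same pathway, eif2b1 and eif2s2 differed by 0.29 ± 0.108 and 0.24 ± 0.218. All 3 were higher in runzel in 3 of 3 pairs and none passed. Of the 39 factors, 11 were higher in 3 of 3 pairs and 7 lower, where 17.7% of all tested genes were so in each direction. The named genes were picked for small p in this list, so their shared direction is no separate support. Other genes of the pathway are not described here.

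In the list of ribosome biogenesis genes 1 of 65 passed the paired fit, close to the share of all tested genes that did (80 of 6136, 1.3%). Of the 65, 24 were below 0 and 41 above, with a median of 0.048, and nip7, which acts in the maturation of the large subunit, rose in the paired fit. Its signal was 1955, 1497 and 1578 in runzel, against 1342, 959 and 839 in wildtype siblings, without overlap and higher in 3 of 3 pairs. The difference was 0.67 ± 0.180 with an adjusted p of 0.818 unpaired and 0.0487 paired (limma). In the same list bop1, also of large-subunit maturation, had 1360, 1423 and 1547 in runzel, against 1104, 1079 and 1072 in wildtype siblings (0.39 ± 0.111, paired adjusted p = 0.260, limma), and eif6, which keeps new large subunits from joining small ones, differed by 0.26 ± 0.137. The 56 mitochondrial ribosomal protein genes had a median of 0.047, with 22 below 0 and 0 passing. There mrpl36 differed by -0.34 ± 0.084 and mrpl44 by 0.31 ± 0.238. Of 13 genes of S6 kinases, TOR signalling and Myc, which drives ribosome production, 5 were below 0 and 0 passed. In that list myca had 1380, 1531 and 1740 in runzel, against 1040, 1093 and 1259 in wildtype siblings (0.44 ± 0.040, paired adjusted p = 0.198, limma), mych differed by -0.33 ± 0.061 and rheb by 0.33 ± 0.432.

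**Figure D5:**
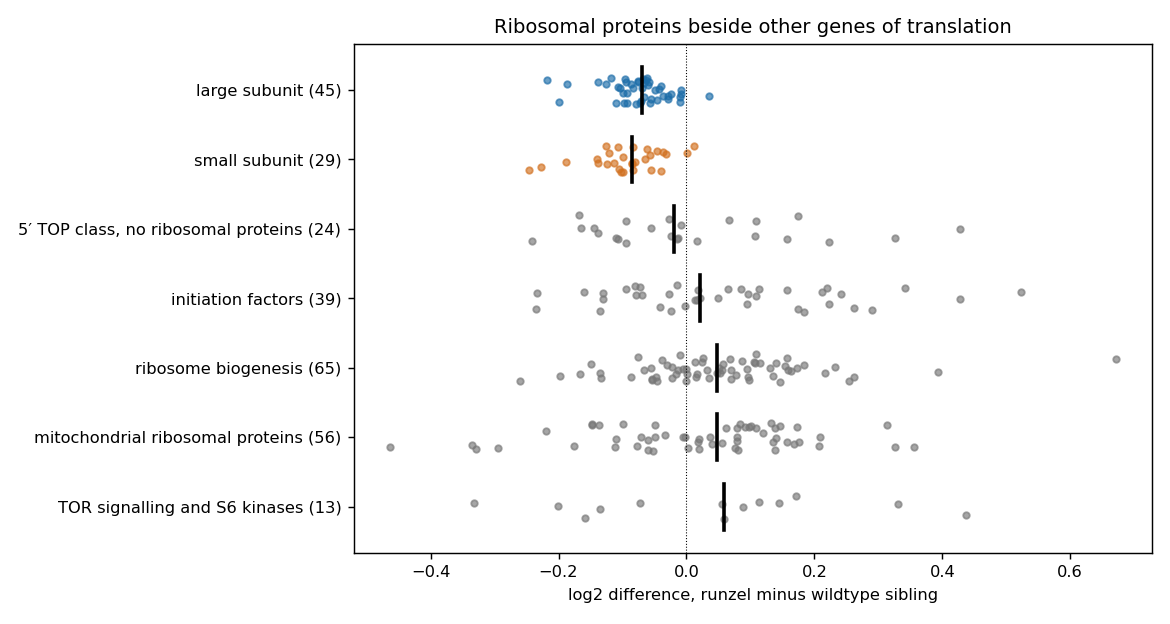
Log2 difference, runzel minus wildtype sibling (horizontal), of each tested gene of the 2 ribosomal subunits and of 5 other lists of translation genes (rows, number of genes in parentheses), with a bar at the median, on the deposited scale. Subunit genes lie within a narrower band than the other lists and have medians of -0.070 and -0.086, against -0.019 to 0.058 in the other lists. The other lists are dimmer, with median signal percentiles of 66.2 to 97.7 against 99.4 for the members, so the widths of the bands are not like for like. Some of these lists share genes. After quantile normalization or cyclic loess the subunit medians were above 0.

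Markers of the tissues that the dissection could leave beside muscle were measured along with the members. Of 20 gut, liver and pancreas genes tested, 19 were below 0 with a median of -0.33, and 4 passed in the paired fit, all lower (1.3% of all tested genes passed in either direction). Their summed signal was 229370 to 242175 in runzel and 282456 to 307312 in wildtype siblings, without overlap. Of 23 epidermis genes, 20 were below 0 with a median of -0.19, and 6 passed, all lower, with summed signals of 374767 to 458130 in runzel and 438409 to 506303 in wildtype siblings. The 24 proliferating-cell genes had a median of -0.05 and 0 passed, with summed signals of 67550 to 83879 in runzel and 74627 to 85657 in wildtype siblings. The 12 notochord and connective tissue genes had a median of -0.12 and 0 passed, and of 10 blood genes 1 passed, hbbe2, lower. The 10 blood genes had a median of -0.006 and the 3 slow muscle genes one of 0.02, with 0 of the slow muscle genes passing. The 16 neural tube genes, of which 0 passed, had a median of -0.0001. Fast muscle markers had a median of -0.06 and summed signals of 1297490 to 1483980 in runzel and 1347820 to 1602890 in wildtype siblings, and 3 passed in the paired fit, mybpc2b and ttn.2 higher and acta1a lower. The part of these tissues in the ribosomal protein differences was not tested.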

How the data were processed

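Signal was measured on 6 Affymetrix Zebrafish Genome Arrays, 3 per group, each of pooled muscle RNA prepared with Qiagen kits and labelled with biotin. Per the labels, scanning was done on a GeneChip Scanner 3000 under GeneChip Operating Software 1.2 at default settings, and the deposited values are linear intensity per probe set; their summary method was not given in the sources used here. The deposited values were kept on their scale and analysed as log2(signal + 50), a scale that understates changes of low signals. Precision is limited by how many arrays there were.

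Of 15617 probe sets, 115 controls were left out. In the platform annotation 10795 of the others had 1 symbol, 135 several and 4572 none, and 1 symbol was updated through RefSeq. Probe sets with a mean under the 40th percentile (log2 8.90) were not tested, which left 9301 probe sets and 6136 genes, each gene by its brightest tested probe set; 78 of the 79 member probe sets passed. The groups were fitted in limma 3.58.1 (R 4.3.3) with empirical Bayes moderation that follows intensity. The fit was also run on simulated data, with changes larger than the difference of any member, so that run does not bear on differences as small as theirs. Two-sided p-values were adjusted over all tested probe sets (Benjamini-Hochberg) at a threshold of 0.05. The exact permutation test used the 20 splits of the arrays.

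The labels do not say whether a replicate number marks a clutch. Deviations from the group means correlated between same-numbered arrays at 0.551, 0.389 and 0.526 and between others at -0.401 to -0.152. Deviations within a group sum to 0, so the negative values follow from the positive ones and are no separate evidence. With so few arrays, the same numbers could also match best by chance. The numbers were taken as pairs on this basis, before calls were compared, and used as a block in a second fit. The paired p-values, the SDs of the pairs and the counts of pairs with the same sign all rest on that choice. Matching arrays whose deviations correlate tends to make the spread of pair differences smaller than the spread between arrays. Apart from those clutches nothing says how separate the replicates were, so p-values measure the spread between these samples. Slide and scan dates were not used here.

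Members, lists and settings were chosen with earlier results of these data known. Named members were, per subunit and direction, up to 6 with the largest differences whose groups did not overlap (filled by size of difference), the 3 brightest and 3 dimmest, every member passing a fit, the P proteins and rpsa, paralogues and members whose probe sets disagreed in sign, and for each list up to 3 genes of smallest p. Role groups and the other members named were chosen after their values were seen. Alternatives were the array scaling, pseudocount, filter, trend, block, probe sets per gene and leaving out each array.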

Additional observations from a re-analysis of the deposited data

How the results depend on the processing

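The median difference of the large subunit (-0.070) and of the small subunit (-0.086) was above 0 after quantile normalization, at 0.017 and 0.0042, and after cyclic loess, at 0.031 and 0.0040, with or without the replicate block; under every other alternative run it stayed below 0, the lowest being -0.124 and -0.140. Leaving out 1 array gave -0.092 to -0.037 for the large subunit and -0.128 to -0.039 for the small one, and leaving out 1 pair -0.109 to -0.040 and -0.140 to -0.043. The large-minus-small difference (0.016) ran between 0.0017 and 0.0386 when an array was left out. The limma fit called 0 probe sets. With the replicate block it called 111, with a random block on the replicate number (correlation 0.423) 19, with the block and no intensity trend 3, and with the spike scaling and no block 1. Leaving out 1 array gave 0 to 1 calls, and leaving out 1 pair with the block gave 41, 32 and 165 (without pair 1, 2 and 3). With the block together with another scaling, calls numbered 93 for median centring, 125 for the 75th percentile, 103 for quantile normalization, 115 for cyclic loess, 86 for equal total signal, 87 for equal total signal without the members and 103 for spikes. Among these only block with median centring called a member, 1 large-subunit gene, rpl9 (-0.272); the small subunit had 0 under every alternative. The spike scaling, the combinations of block and scaling, the block without trend and the medians without rpl7l1 and rps19bp1 were added after the data were seen. The block changed no other call among the members.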
